A study of Mus musculus with 60 samples.

Results

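The integrated stress response is described here through 10 of its genes, in mice lacking most Ftsj1 transcript and in wildtype mice: Atf4, Atf5, Atf3, Ddit3, Nupr1, Trib3, Ppp1r15a, Asns, Chac1 and Sesn2. They were taken by gene symbol from the authors' comparison of the genotypes in brain, heart, kidney, liver and spleen, and all 10 were present in all 5 poly-A tables, each of which names 55290 genes. The list was chosen by the poly-A fold changes and adjusted p-values of these same comparisons, so every fold change below describes these genes and is no independent test of them. Whole organs came from 3 wildtype and 3 Ftsj1-deficient male mice, labelled WT and Ftsj1_DF, at 4 months of age, with no treatment. The labels name neither the altered allele nor the strain. By their labels the same 6 mice gave all 5 organs, so the organs are not independent of each other. By the labels 2 of the mice were brothers and the other 4 were brothers as well, each sibship held both genotypes, and a single batch number is given throughout.

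The integrated stress response is a shared pathway by which cells answer amino acid shortage, misfolded proteins, mitochondrial damage, haem shortage and viral RNA. Kinases that sense these conditions phosphorylate the translation factor eIF2, general protein synthesis slows, and a few messenger RNAs with upstream open reading frames, those of Atf4 and Atf5 among them, are translated more. ATF4 then switches on genes for amino acid supply, for stress signalling and for the return to normal translation. Much of the control of ATF4 and ATF5 is therefore exerted on protein synthesis, which the level of their messenger RNA does not show. Ftsj1, the gene that was altered, encodes an enzyme that methylates ribose in the anticodon loop of transfer RNAs.

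ATF4 paired with a C/EBP protein binds a composite site known as the C/EBP-ATF response element. The letters TGATGNAA, searched on both strands, were found in the promoters of 5 of the 10 genes (Asns, Atf3, Chac1, Nupr1 and Trib3), against 4.51% of 27025 genes in the RefSeq promoter table, whose windows run from 250 bases before to 50 bases after each start site. The palindrome TGACGTCA, the cyclic AMP response element bound by ATF and CREB proteins, was found in the promoter of Ppp1r15a alone among the 10 genes and in that of 2.03% of all genes. The ER stress response element, searched on both strands as CCAAT and CCACG with 9 bases between them, was found in none of the 10 and in 0.137% of all genes. The stretches below are shown because they hold these matches. That of Nupr1 reads TTGCATCA exactly as those of Atf3 and Chac1 do. Of the 5 genes with the C/EBP-ATF element, only Nupr1 passed the authors' adjusted p of 0.05 (DESeq2) in any organ. Atf5, which passed in 2 organs, has no match. Capitals mark the match, read 5′ to 3′ on the strand of the gene. The match of Trib3 lies after the start site and is not printed.
Nupr1 (GRCm38.p6, chr7:126625549-126625604, minus strand; 102 bases between match and start site): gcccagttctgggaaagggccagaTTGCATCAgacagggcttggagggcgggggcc
Atf3 (GRCm38.p6, chr1:191183412-191183467, minus strand; 102 bases between match and start site): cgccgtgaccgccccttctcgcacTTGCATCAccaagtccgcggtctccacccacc
Chac1 (GRCm38.p6, chr2:119351025-119351080, plus strand; 185 bases between match and start site): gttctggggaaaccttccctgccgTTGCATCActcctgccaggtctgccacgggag
Asns (GRCm38.p6, chr6:7693210-7693256, minus strand; 15 bases between match and start site): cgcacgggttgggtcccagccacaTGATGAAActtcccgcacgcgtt
Ppp1r15a (GRCm38.p6, chr7:45526269-45526304, minus strand; 4 bases between match and start site): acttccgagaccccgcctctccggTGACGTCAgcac
A match describes the letters of these windows and not a bound site, and the promoter table is of another build than the one the authors used. The 10 genes were listed as genes of the response that ATF4 drives, so their share of matches beside that of all genes is no test. Sites outside the windows were not sought.

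For each organ the tables hold the mean over 6 libraries, the log2 fold change and its standard error, and no value for a single mouse, so whether the genotypes overlap cannot be read for any gene. Depth per library is unknown. Mean levels, in normalised counts, summed to between 127968852 in spleen and 337903927 in kidney. Ftsj1 itself was at 8.79% to 15.4% of wildtype over the 5 organs by the authors' deposited table, and its sign fixes the direction of all fold changes. Markers of each labelled organ stood highest in that organ. The spleen marker Ms4a1, a B cell gene, is listed at 0 in all 5 organs, while Cd79a, Cd3e and Cr2 were detected in spleen. Digestive enzyme genes of the exocrine pancreas (Cela1, Cpa1, Pnlip, Prss2 and Ctrb1, with Cela2a listed at 0 in all 5 organs) made up 3.14% of the summed level in spleen, 0.115% in liver and 0.00824% in kidney, there mostly Cela1. In tissue of mixed cells, fewer cells of a type and less RNA per cell cannot be told apart.

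Per length, Atf4 had the highest mean level of the 10 messenger RNAs in brain, kidney and spleen and Atf5 in heart and liver. No order of organs was common to all 10. Levels are given in ppm of an organ's summed level per kilobase of exon, a scale on which genes can be compared; the tables of the organs were normalised separately. Atf4 lay between 26.4 in heart and 86.3 in spleen. Atf5 stood at 201 in liver, 6.32 times its next highest level, in heart (31.9), and at 8.3 in kidney. Asns, the enzyme that makes asparagine, stood at 31.4 in brain, 32.8 times its level in heart (0.957). Sesn2, whose protein restrains mTORC1 when leucine is short, was highest in kidney at 19.4 and lowest in heart at 1.32. Nupr1 reached 61.8 in spleen and lay between 2.24 and 5.83 in the other 4 organs. The error of its fold change in spleen implies a standard error of 43.1% for that mean, so its place below Atf4 (86.3) there is uncertain. Its liver level, 2.24, pools fitted levels of 245 normalised counts in wildtype and 2452 in deficient mice. Atf3 and Trib3 had their lowest levels in brain, at 0.439 and 0.394, and Chac1 in kidney, at 0.449. Within a gene some neighbouring organs differed by less than 2 combined standard errors of their means: Atf3 in spleen and heart and in liver and kidney, Atf5 in spleen and brain, Atf4 in kidney and heart, Ppp1r15a in brain and kidney, Nupr1 in heart and liver, Asns in liver and kidney, Chac1 in spleen and liver, and Trib3 in kidney and brain. Ddit3 and Sesn2 had no such neighbours. The errors were combined as if the organs were independent, though the same mice gave all of them. They hold only the spread within a genotype, so that of Nupr1 in liver leaves out the gap between 245 and 2452.

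**Figure D1:**
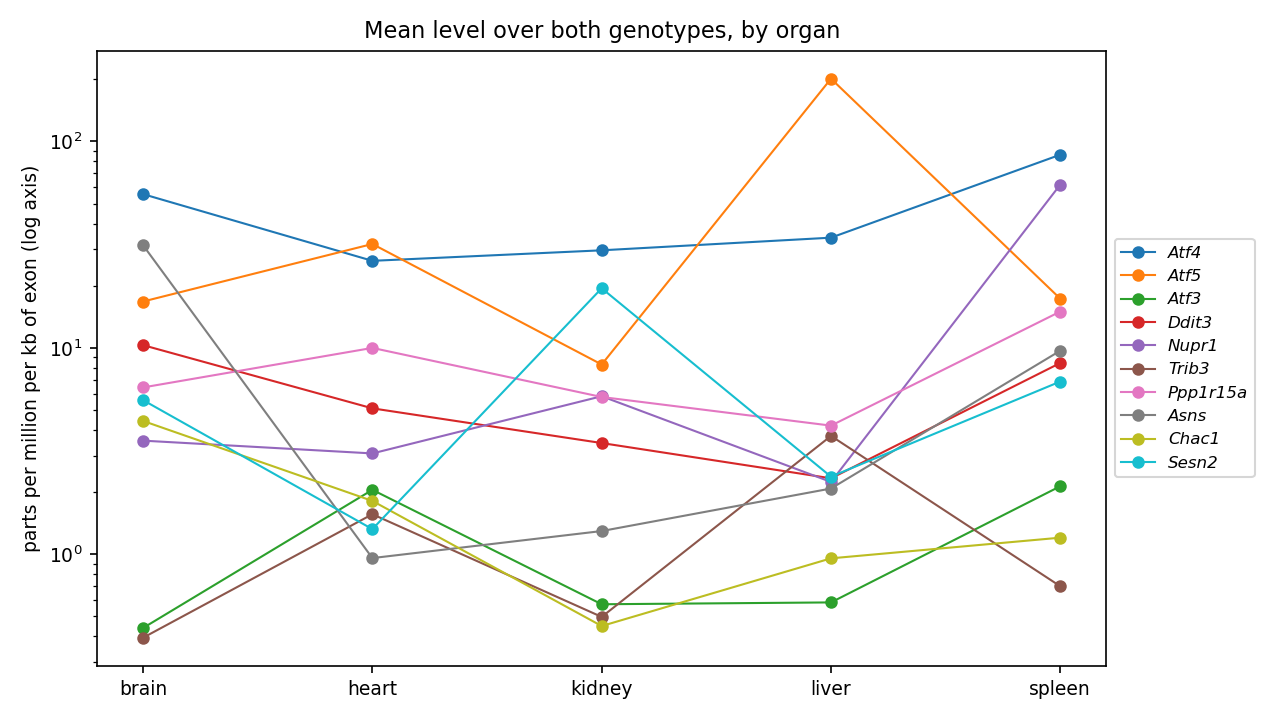
Mean level of each of the 10 genes over both genotypes in the 5 organs, in ppm of the organ's summed level per kilobase of exon (log axis); lines only join the points of a gene. Atf5 in liver (201), Asns in brain (31.4), Sesn2 in kidney (19.4) and Nupr1 in spleen (61.8) stand above the same gene's level in the other organs. The points carry no error.

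Of the 50 comparisons that 10 genes in 5 organs give, 3 passed the authors' adjusted p of 0.05 (DESeq2, Benjamini-Hochberg), all higher in the deficient mice: Nupr1 and Atf5 in brain and Atf5 in kidney. Fold changes lay above 0 in 34 of the 50. In brain 2 of 10 genes passed, where 0.0607% of all tested genes did and 0.014% were higher; the genes' median log2 fold change was 0.13 and that of all genes with a fold change -0.0030. In kidney 1 of 10 passed, beside 0.987% of all tested genes and 0.339% higher, with a median of 0.0088 against -0.0020. None of the 10 passed in heart, liver or spleen, where 0.541%, 2.29% and 0.0741% of all tested genes passed and 0.21%, 0.887% and 0.0479% were higher. The genes' medians there were 0.21, 0.15 and 0.27, against -0.014, -0.0038 and -0.0010 over all genes; without Nupr1 and Asns, a choice made after seeing the data, the liver median was 0.036. An unadjusted p under 0.05 was reached by 3 of 10 genes for brain, 3 for heart, 1 for kidney, 2 for liver and 2 for spleen, beside 2.34%, 5.71%, 3.99%, 6.63% and 4.7% of all genes with a p. Of these 11, only Atf3 in heart was lower. Since the genes were chosen with these comparisons known, nothing is read from their shares against the background.

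**Figure D2:**
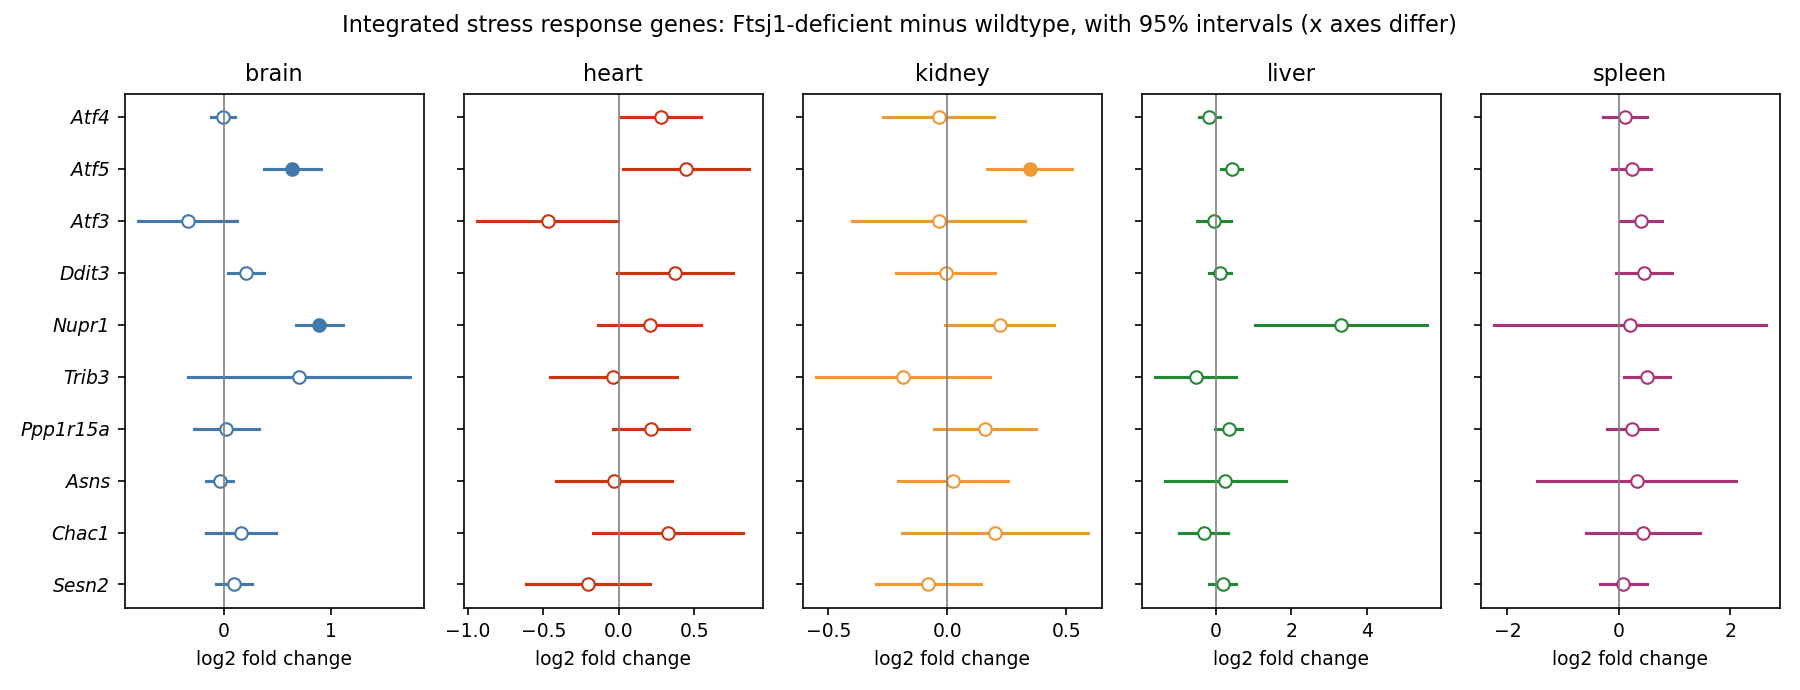
Log2 fold changes of the 10 genes, Ftsj1-deficient minus wildtype, with 95% intervals (fold change and its normal interval) in each organ; n = 3 mice against 3, x axes differ between panels, and filled points passed the authors' adjusted p of 0.05. Filled points are Nupr1 and Atf5 in brain and Atf5 in kidney, and the widest intervals are those of Nupr1 and Asns in liver and spleen.

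Atf5 had a fold change above 0 in all 5 organs and rose in the deficient mice in brain and kidney. Atf5 is a leucine zipper transcription factor related to ATF4, known for its parts in the mitochondrial unfolded protein response and in the maturing of olfactory neurons. Levels fitted to each genotype, which are the pair of values with the deposited mean and the deposited ratio, were 5897 normalised counts in wildtype and 9198 in deficient brain. They were 4923.5 and 6257 in kidney, 7595 and 10333 in heart, 82101 and 110218 in liver, and 4063 and 4757 in spleen. Every organ thus had its higher fitted level in the deficient mice. Log2 fold changes by the authors' deposited table were 0.64 ± 0.14 in brain (SE, adjusted p = 0.00592) and 0.35 ± 0.092 in kidney (adjusted p = 0.0219). In liver the authors' deposited table gives 0.42 ± 0.14 (adjusted p = 0.0829), in heart 0.44 ± 0.21 (0.555) and in spleen 0.23 ± 0.18 (0.914). The 95% intervals of brain, heart, kidney and liver (0.38 to 0.91, 0.026 to 0.86, 0.17 to 0.53 and 0.15 to 0.70) overlap each other, and whether the organs differ was not tested. With these errors, the smallest fold that would have passed for Atf5 was 1.49 in brain, 1.25 in kidney, 1.37 in liver, 1.71 in heart and 1.69 in spleen.

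Atf4, the central factor of the response, passed in no organ. Its fitted levels were 29612 normalised counts in wildtype and 29569 in deficient brain, and the log2 fold change by the authors' deposited table was -0.0021 ± 0.057 with an interval from -0.11 to 0.11. In heart they were 7945 and 9630, with a log2 fold change of 0.28 ± 0.14 by the authors' deposited table (adjusted p = 0.570). Kidney, liver and spleen had log2 fold changes of -0.036 ± 0.12, -0.17 ± 0.14 and 0.11 ± 0.20 by the authors' deposited table, with intervals from -0.27 to 0.20, -0.45 to 0.12 and -0.29 to 0.51. In brain, with the narrowest interval, a change of 1.18-fold in Atf4 would have passed.

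**Figure D3:**
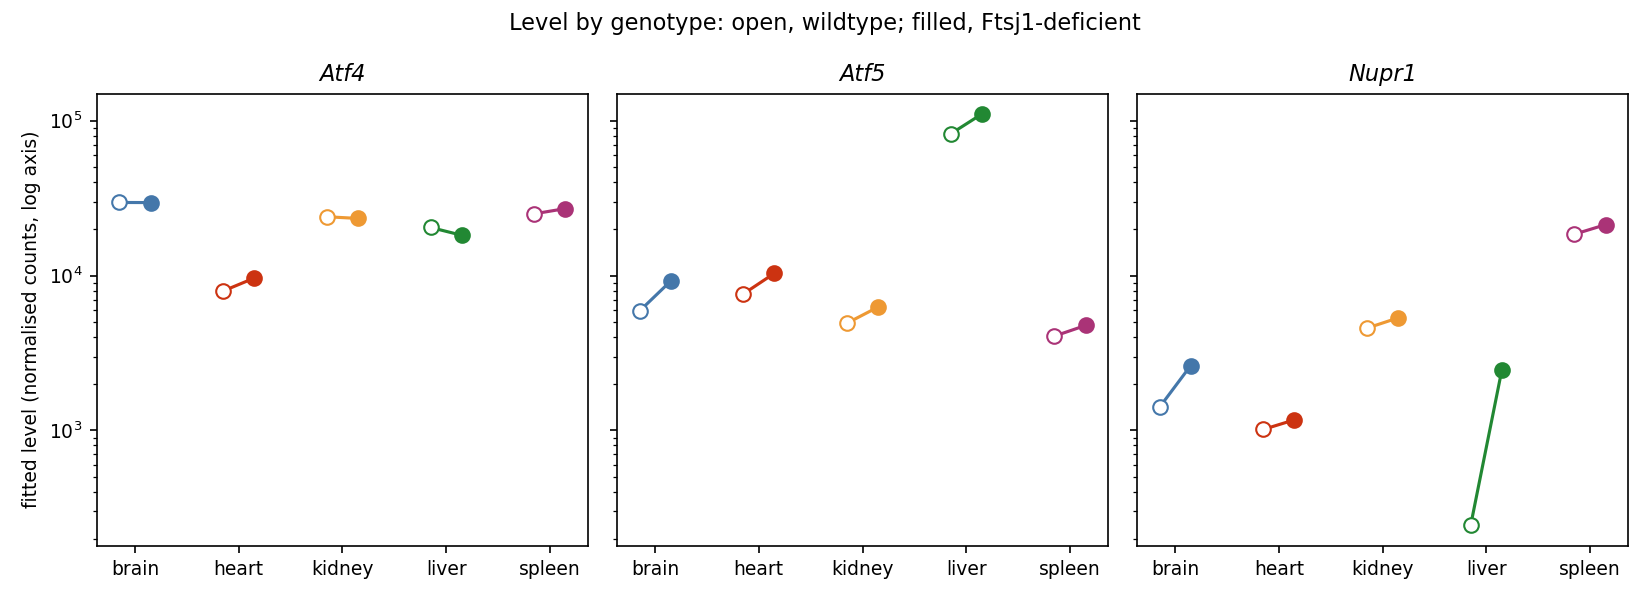
Levels of Atf4, Atf5 and Nupr1 fitted to wildtype (open points) and Ftsj1-deficient (filled points) mice in each organ, in normalised counts on a log axis; the points come from the deposited mean and fold change over 3 mice against 3 and carry no error. Atf5 is higher in the deficient mice in each organ, Atf4 in brain is at 29612 and 29569, and Nupr1 in liver goes from 245 to 2452.

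Atf3 and Ddit3, 2 further leucine zipper factors, did not pass in any organ. Atf3, a repressor and activator that many stresses and growth signals induce within a short time, was lower in heart, with fitted levels of 724 normalised counts in wildtype and 523 in deficient mice. Its log2 fold change there was -0.47 ± 0.24 and that in spleen 0.39 ± 0.19 by the authors' deposited table, with adjusted p-values of 0.584 and 0.778. In brain, kidney and liver the authors' deposited table gives Atf3 -0.34 ± 0.23, -0.037 ± 0.19 and -0.048 ± 0.23. The sign of Atf3 thus differed between spleen and the other 4 organs, a difference that was not tested. Ddit3, which encodes CHOP, a partner of C/EBP proteins linked to cell death under lasting stress, had fitted levels of 3698 normalised counts in wildtype and 4274 in deficient brain. Its log2 fold changes in brain, heart and spleen were 0.21 ± 0.087, 0.37 ± 0.20 and 0.45 ± 0.26 by the authors' deposited table, with adjusted p-values of 1.00, 0.635 and 0.857. In kidney and liver they were -0.0069 ± 0.11 and 0.12 ± 0.15 by the authors' deposited table.

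Nupr1 had a fold change above 0 in all 5 organs and rose in brain, where it had the lowest adjusted p of the 10 genes; its errors were the widest of the 10 in liver and spleen. Nupr1 encodes a small chromatin protein known from injured pancreas and as a partner of stress transcription factors. Its fitted level in brain was 1412 normalised counts in wildtype and 2620 in deficient mice, a ratio of 1.86, and the log2 fold change by the authors' deposited table was 0.89 ± 0.11 (adjusted p = 6.66e-12). Choroid plexus and pituitary, cell sources that a dissection of brain may hold in unequal amounts, had 0 of 4 and 0 of 2 tested markers passing by DESeq2 (0 and 1 at an unadjusted p under 0.05). Summed fitted levels of these markers were 205339 normalised counts in wildtype and 173542 in deficient brain for choroid plexus, and 1110 and 376 for pituitary; none is listed at 0 in all organs. The choroid plexus sum is mostly Ttr, with a log2 fold change of -0.27 ± 0.66 by the authors' deposited table, which also gives Clic6 0.086 ± 0.57, and the pituitary sum includes Gh, for which no p is given. The part of these cells in the value of Nupr1 was not tested.

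In kidney Nupr1 had fitted levels of 4573 normalised counts in wildtype and 5326 in deficient mice and in heart of 1015 and 1170. The log2 fold changes were 0.22 ± 0.12 in kidney and 0.21 ± 0.17 in heart by the authors' deposited table, with adjusted p-values of 0.905 and 0.865. In liver the fitted levels were 245 and 2452, the log2 fold change was 3.32 ± 1.16 by the authors' deposited table and the adjusted p was 0.111. In spleen they were 18478 and 21284, with a log2 fold change of 0.20 ± 1.24 and an adjusted p of 0.990 by the authors' deposited table. A change in Nupr1 would have had to reach 13.6-fold in liver and 36.4-fold in spleen to pass, against 1.38-fold in brain and 1.32-fold in kidney.

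Transcripts of the exocrine pancreas, like Nupr1, had wide errors in liver and spleen, and in liver neither they nor Nupr1 passed. Of the 6 pancreas markers, 5 were detected in liver, with log2 fold changes of 4.09 for Cela1, 5.72 for Cpa1, 5.87 for Pnlip, 6.02 for Prss2 and 5.86 for Ctrb1 by the authors' deposited table. Their standard errors there ran from 1.64 to 3.73 by the authors' deposited table. None of the 3 that have an adjusted p passed (DESeq2), 2 had an unadjusted p under 0.05, and for Prss2 and Ctrb1 the authors left the p empty, which DESeq2 does for a count outlier. The summed fitted level of these markers was 13561 normalised counts in wildtype and 537938 in deficient liver. In spleen the sums were 3500118 and 4547153, and standard errors of the 5 markers ran from 2.07 to 2.37 by the authors' deposited table. In kidney Cela1, with a mean level of 24318 normalised counts, made up most of the markers' sum and had a log2 fold change of 0.20 ± 0.11 by the authors' deposited table, with an adjusted p of 0.939. Cpa1, Pnlip, Prss2 and Ctrb1 had no p there, and log2 fold changes of 7.91 to 8.38 by the authors' deposited table, while Nupr1 and Asns there had standard errors of 0.12. The part of pancreas transcripts in the values of Nupr1 was not tested.

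Of 9999 genes whose mean level was at least 1000 in liver, 34, Nupr1 included, had a standard error as large as that of Nupr1, and 53 one as large as that of Asns. Of 11228 such genes in spleen, the counts were 57 and 93. Wide errors were not confined to these genes and organs: Trib3 had standard errors of 0.55 in liver and 0.53 in brain, and Chac1 0.52 in spleen, by the authors' deposited table. Asns had standard errors of 0.82 in liver and 0.91 in spleen by the authors' deposited table, beside 0.063, 0.20 and 0.12 in brain, heart and kidney. Its spread between mice of a genotype, as a coefficient of variation implied by these errors, was 69.5% in liver and 77.1% in spleen and 5.35% in brain. Atf5 did not share this pattern: its implied coefficient of variation lay between 7.8% in kidney and 18.1% in heart, with 11.9% in liver and 15.4% in spleen. The median standard error of genes at this level was between 0.094 in brain and 0.17 in spleen.

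**Figure D4:**
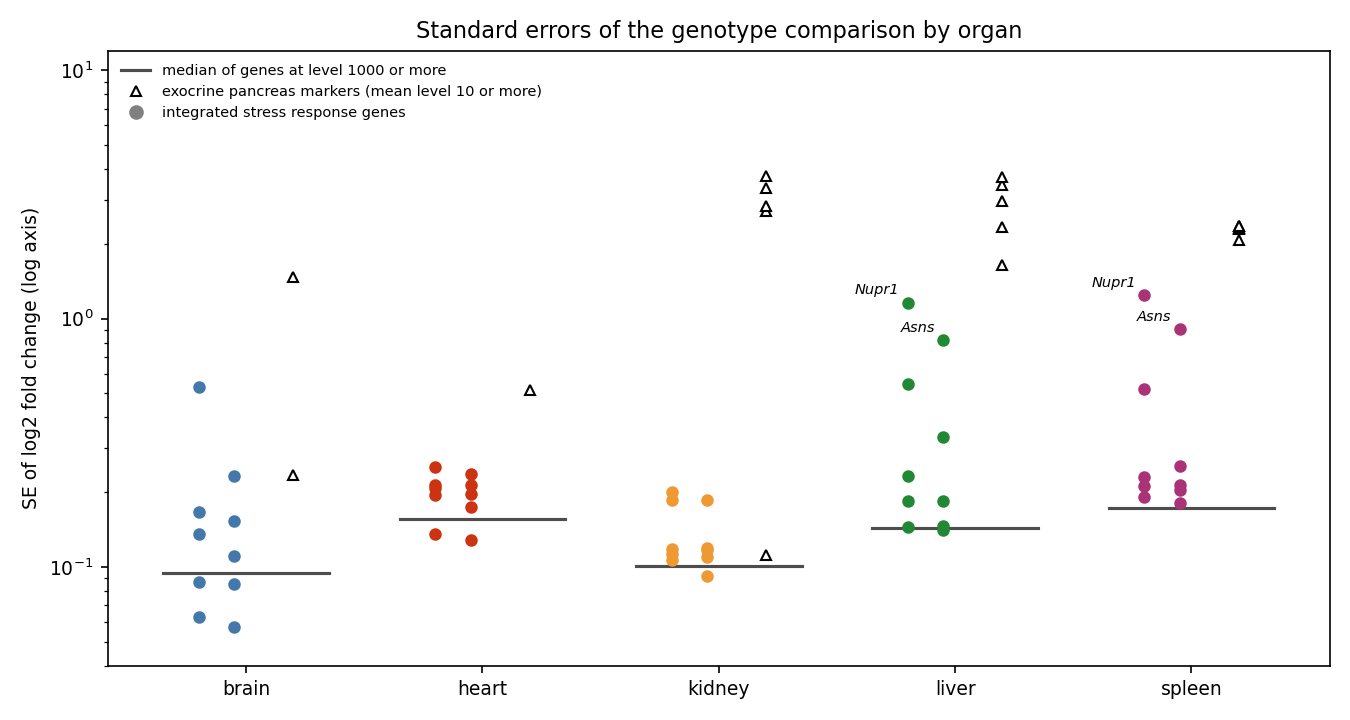
Standard errors of the log2 fold change (log axis) in each organ for the 10 genes (filled points), for exocrine pancreas markers with a mean level of 10 or more (open triangles) and as the median of genes whose mean level was at least 1000 (bars). Nupr1 (1.16 and 1.24) and Asns (0.82 and 0.91) lie highest among the 10 genes in liver and spleen.

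Trib3, a pseudokinase that binds AKT and ATF4, did not pass in any organ and had no common sign. Log2 fold changes were above 0 for brain (0.70 ± 0.53) and spleen (0.51 ± 0.21) and below it for heart (-0.035 ± 0.21), kidney (-0.19 ± 0.19) and liver (-0.52 ± 0.55) by the authors' deposited table. Fitted levels in spleen were 157 normalised counts in wildtype and 223 in deficient mice (adjusted p = 0.632 by the authors' deposited table). In brain, where Trib3 was scarcest, only a change of 4.69-fold would have passed.

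Ppp1r15a, which encodes GADD34, the subunit that directs protein phosphatase 1 to eIF2 and so ends the response, lay above 0 in all 5 organs and passed in none. Its log2 fold changes ran from 0.025 ± 0.15 in brain to 0.35 ± 0.19 in liver by the authors' deposited table, with adjusted p-values of 1.00 and 0.497, with 0.21 ± 0.13 in heart, 0.16 ± 0.11 in kidney and 0.23 ± 0.23 in spleen. Fitted levels in liver were 2600 normalised counts in wildtype and 3305 in deficient mice. The upper ends of its 95% intervals reached 0.33 for brain, 0.47 for heart, 0.37 for kidney, 0.71 for liver and 0.68 for spleen on the log2 scale.

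Asns, Chac1 and Sesn2, which act on amino acids and glutathione, passed in no organ. In brain, where its level was highest, Asns had fitted levels of 19652 normalised counts in wildtype and 19161 in deficient mice, and a log2 fold change of -0.037 ± 0.063 with an interval from -0.16 to 0.087 by the authors' deposited table. Chac1, an enzyme that degrades glutathione, had log2 fold changes of 0.17 ± 0.17 for brain, 0.33 ± 0.25 for heart, 0.20 ± 0.20 for kidney, -0.31 ± 0.33 for liver and 0.43 ± 0.52 for spleen by the authors' deposited table. Sesn2 had fitted levels of 23456 and 22181 in kidney, its highest organ, and a log2 fold change there of -0.081 ± 0.11 by the authors' deposited table. In brain, heart, liver and spleen the authors' deposited table gives Sesn2 0.094 ± 0.085, -0.20 ± 0.21, 0.19 ± 0.18 and 0.081 ± 0.21. None of these intervals leaves out 0.

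In spleen all 10 genes lay above 0, from 0.081 for Sesn2 to 0.51 for Trib3, beside 53.1% of genes whose mean level was at least 10. Some other lists lay mostly above 0 in spleen too. These included 23 of 26 genes of the ATF6 and XBP1 arm of the unfolded protein response and 18 of 20 of amino acid synthesis. They also included 16 of 18 synthetases and 13 of 15 mitochondrial chaperones and proteases. Further lists did so less or not at all: 6 of 12 amino acid transporter targets of ATF4 and 12 of 20 other ATF4 or CHOP targets. The counts were 9 of 16 for p53 targets and 16 of 25 for eIF2 kinases and control. Blood cell markers lay above 0 there as well: 7 of 7 neutrophil markers (median 0.98, none passing by DESeq2, 4 at an unadjusted p under 0.05) and 4 of 4 tested erythroid markers (median 0.78, none passing, 2 at an unadjusted p under 0.05). Summed fitted levels were 21627 normalised counts in wildtype and 52528 in deficient spleen for neutrophils and 1139075 and 1949610 for erythroid cells, whose marker Alas2 is listed at 0 in all organs. Their part in the spleen values was not tested. Of all tested genes, 0.887% were higher in liver, 0.339% in kidney and 0.21% in heart. In liver, beside the values of Atf5, 2 of 5 macrophage markers rose (Cd163 and Vsig4) and 2 of 5 tested neutrophil markers rose (S100a8 and S100a9). Summed fitted levels there were 32072 and 46983 for macrophages and 871 and 1399 for neutrophils, and their part was not tested. In kidney, where Atf5 rose, 2 of 6 tested neutrophil markers rose (S100a8 and S100a9; median 1.04), with summed fitted levels of 589 normalised counts in wildtype and 1016 in deficient mice. In heart 4 of 6 rose (S100a8, S100a9, Cxcr2 and Csf3r; median 1.71), with sums of 658 and 1798. In brain 0 of 4 tested passed by DESeq2 (1 at an unadjusted p under 0.05; median -0.19). The part of these cells in the values of Atf5 and of the other genes was not tested in any organ.

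In the wider pathway, changes past the threshold lay in a few lists. These were other ATF4 or CHOP targets in liver, immediate early genes in brain and kidney, and targets of NRF2 in kidney and liver. The lists overlap: Fos and Junb, of the ATF4 partners, and Btg2, of the p53 targets, are also counted among the immediate early genes. No other gene of the partner and p53 lists passed in any organ. Lists named here leave out the 10 genes, and rises and falls are by the authors' adjusted p of 0.05 (DESeq2). Of all tested genes, between 0.0607% in brain and 2.29% in liver passed in either direction. Kinases of eIF2 and the factors that control it had 0 of 25 tested genes passing in each organ, with medians from 0.0020 in liver to 0.076 in spleen and 0 to 2 genes at an unadjusted p under 0.05. Eif2s2, the gene of an eIF2 subunit, is listed at 0 in all 5 organs and was not tested. Genes of amino acid and one-carbon synthesis had none passing of 20 tested, or 19 in liver, with 0 to 5 at an unadjusted p under 0.05 and medians from -0.026 in heart to 0.15 in spleen. Amino acid transporters known as ATF4 targets had none passing of 11 to 13 tested (1 to 3 at an unadjusted p under 0.05, medians from -0.13 in heart to 0.17 in liver). Cytosolic aminoacyl-tRNA synthetases had none passing and none at an unadjusted p under 0.05 of 18 in each organ, with medians from -0.014 in liver to 0.096 in spleen.

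Among other reported targets of ATF4 or CHOP, 3 of 20 tested rose in liver, where 0.887% of all tested genes were higher, and none passed in the other organs, where 1 to 6 of 19 or 20 had an unadjusted p under 0.05. The liver genes were Fgf21, a fasting hormone, the stress hormone gene Gdf15, and Ndrg1, a gene induced in hypoxia. Their log2 fold changes were 2.38 ± 0.21, 1.18 ± 0.24 and 1.29 ± 0.20 by the authors' deposited table, with adjusted p-values of 3.81e-27, 0.000239 and 1.34e-07. The median of this list in liver was 0.035, and 11 of its 20 genes lay above 0.

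Chaperones and quality control genes of the ATF6 and XBP1 arm of the unfolded protein response had none passing of 26 in any organ (0 to 3 at an unadjusted p under 0.05), with medians from 0.013 in heart to 0.20 in spleen. Mitochondrial chaperones and proteases had none passing of 15 (0 or 1 at an unadjusted p under 0.05), with medians from -0.012 to 0.078. Partners and relatives of ATF4 among leucine zipper factors had 2 of 26 falling in brain, Fos and Junb, and 1 rising in kidney, Fos. Of all tested genes, 0.0607% passed in either direction in brain and 0.339% were higher in kidney. Of the targets of NRF2, the factor of the oxidative stress response, Gclc, Gsta1 and Gsta2 rose in kidney and Pgd fell in liver, out of 15 tested in each, beside 0.339% of all tested genes higher in kidney and 2.29% passing in either direction in liver. The targets of p53, another inducer of Sesn2, had Btg2 falling in brain out of 16. Immediate early genes, a group that Atf3 is often counted in, had 7 of 28 falling and none rising in brain (median -0.31). In brain 13 of 21406 tested genes, or 0.0607%, passed in either direction. In kidney 2 immediate early genes rose and 2 fell of 27 (median 0.013), beside 0.987% of all tested genes passing in either direction. No immediate early gene passed in heart, liver or spleen, where 5, 5 and 2 had an unadjusted p under 0.05.

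**Figure D5:**
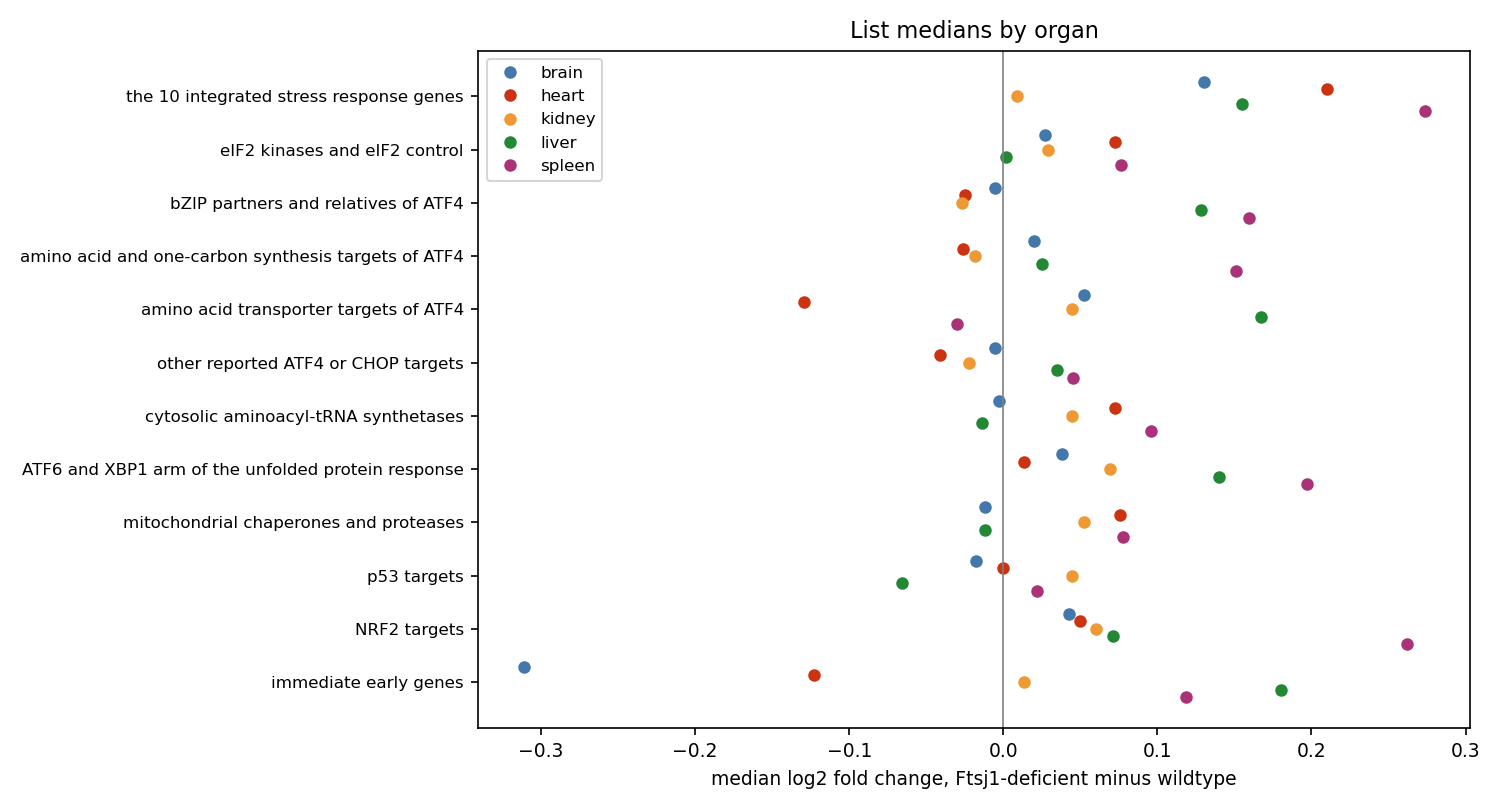
Median log2 fold change, Ftsj1-deficient minus wildtype, of the 10 genes and of each pathway list (the 10 genes left out) in the 5 organs; each point is a median over genes tested and carries no error. The 10 genes lie between 0.0088 in kidney and 0.27 in spleen, and immediate early genes in brain at -0.31.

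Genes most like Nupr1 and Atf5 were sought among 17391 genes whose mean level was at least 10 in all 5 organs, by Euclidean distance over the 5 organs. In log2 fold change, P2rx1, Gm5441 and Gm9347 were nearest to Nupr1 (distances 0.60, 0.97 and 1.00). P2rx1, an ATP-gated channel gene, had log2 fold changes of 0.82 in brain and 3.00 in liver by the authors' deposited table. The same table gives Gm5441 -0.029 and Gm9347 0.025 in brain, and 3.27 and 3.05 in liver. Distances took no account of errors. No error is given here for the genes found, and no change in them is claimed. The largest value of Nupr1, that in liver (3.32 ± 1.16), did not pass (adjusted p = 0.111, DESeq2). Spn, Gm42047 and Apol10b were nearest to Atf5 (0.24, 0.25 and 0.25). In level over organs, Gmip, Spdl1 and Mtfr2 were nearest to Nupr1 (0.35, 0.43 and 0.43) and Qsox1, Fn1 and Gm6939 to Atf5 (0.94, 1.04 and 1.11).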

How the data were processed

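Poly-A RNA of 5 organs from 3 Ftsj1-deficient and 3 wildtype mice was measured in 30 libraries prepared with a stranded kit, per the labels' protocols. Per the submitters' processing notes, GRCm39, featureCounts, Subread 2.0.3 and DESeq2 were used; no source names the aligner, annotation or strand setting, so reads shared between overlapping or near-identical genes are uncertain. The mean signal over the 6 libraries (normalised counts) is the base mean that the authors deposited from DESeq2, per the file headers. The log2 fold change (not shrunk), its standard error, and the Wald score were deposited by the authors, and the score equalled the fold change divided by its error. The p-value and the Benjamini-Hochberg adjusted p-value were deposited by the authors too. No values per library were used, so no count model was fitted; depth per library is unknown. Nothing shows that p-values measure more than the spread of these mice. The 20 tables of non-coding RNA, which name none of the 10 genes, were not used, and 1 unnamed entry per poly-A table (at most 0.000198% of the summed level) was left out.

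From these, fitted levels per genotype and the 95% interval were computed with Python 3.11.15, numpy 2.4.6, pandas 2.3.3 and scipy 1.17.1. A coefficient of variation was computed as the standard error times ln 2 times the square root of 1.5, and the smallest fold that would pass from the largest p that passed in that organ. The adjustment, the fitted levels and the coefficient of variation were tested on simulated data. The coefficients simulated were smaller than those of Nupr1 and Asns in liver and spleen, so the formula is untested there. The interval and the smallest fold that would pass were not tested in this way. The tables' own adjusted p was used as called, under 0.05; a mean level of 10 and one of 1000 set the gene sets named. Exon lengths are unions from GENCODE M21 (GRCm38). List symbols matched directly (275) or by a RefSeq synonym (16), and 3 did not match. The genes and lists were chosen with earlier results of these data known. The rule for named genes took the 10 genes and Ftsj1 in every organ, up to 4 passing genes per list, organ and direction, and the 3 genes nearest to Nupr1 and Atf5; marker genes given with values were named after these had been seen. Not all genes the rule allows are printed.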

Additional observations from a re-analysis of the deposited data

How the results depend on the processing

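The counts of passing genes in brain (2), heart, liver and spleen (0 each) and kidney (1) were the same with Benjamini-Hochberg adjustment over every gene with a p, over genes whose mean level was at least 10 and over the 5 organs together. At an adjusted p under 0.01 the count was 2 in brain and 0 in kidney. At an unadjusted p under 0.05 the count was 3 in heart, 2 in liver and 2 in spleen. With the 5 organs adjusted together, Atf5 had an adjusted p of 0.0486 in kidney and 0.292 in liver. Recentring on the median gene (a shift of at most 0.019 on the log2 scale) moved none of the 50 fold changes across 0 or across the threshold. Scaling to the summed level moved the medians by less than the genes' median standard error, giving 0.13 for brain, 0.28 for heart, 0.034 for kidney, 0.21 for liver and 0.19 for spleen. Without Nupr1 and Asns, a choice made after seeing the data, the median was 0.036 in liver in place of 0.15, and 0.31 in spleen. Leaving out single mice was not possible, since the values are means and fits over 6 libraries. A result that rests on 1 library can be recognised only by its standard error or by a p left empty for a count outlier. No paired analysis was possible because the tables hold no values per mouse, although both sibships hold both genotypes.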
